A study of Homo sapiens with 6 samples.

Results

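Actomyosin contractility is the pulling force that a cell makes when myosin II filaments slide along actin. The messenger RNAs of 43 genes of this machinery and of muscle-type actin proteins were followed here in MDA-MB-231 cells, a human cell line from a triple-negative breast cancer. The genes were taken by symbol from a named list, and all 43 had a row among the 41471 gene symbols of the CDK16 knockdown table and the 34157 of the Reb table. They comprise 5 actins and actin crosslinkers, 10 thin-filament proteins, 8 myosin subunits with their kinase MYLK, 9 genes of RhoA signaling, 4 of actin turnover, 3 PDZ-LIM adaptors and 4 transcription factors.

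CDK16 is a kinase of the PCTAIRE family, and rebastinib (Reb) is a kinase inhibitor that blocks its pairing with cyclin Y and also acts on other kinases such as TIE2. In the first experiment, lentivirus was used to make stable MDA-MB-231 lines with either of the hairpins CDK16-sh1 and CDK16-sh2 against CDK16, and a control line with a scramble shRNA. In the second, MDA-MB-231 cells received the vehicle DMSO, Reb at 1 µM or Reb at 5 µM for 48 h. Each of the 6 conditions had 1 library, so no value below has a replicate check, and the sources do not say whether a hairpin line was a clone or a pool. CDK16 itself, the check of the labels, was listed at 19.1 RPKM with the scramble shRNA, 6.52 with CDK16-sh1 and 4.72 with CDK16-sh2, and at 15.2, 14.3 and 11.4 RPKM with DMSO, Reb 1 µM and Reb 5 µM.

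In non-muscle cells, myosin II pulls on actin once its regulatory light chains are phosphorylated by MYLK or by the kinases ROCK1 and ROCK2, and the phosphatase subunit encoded by PPP1R12A opposes this step. RhoA activates both of these ROCK kinases and the formin DIAPH1, which lengthens actin filaments. The transcription factor SRF reads the state of actin through its MRTF cofactors and binds the CArG box, a site found at many genes of this machinery.

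Total counts ran from 25838443 to 50303269 per library. The 43 genes took 2.61% of all counts with the scramble shRNA, 1.85% with CDK16-sh1 and 2.19% with CDK16-sh2. In the Reb experiment they took 2.59% with DMSO, 2.52% at 1 µM and 1.81% at 5 µM. Transcripts of the mitochondrial genome took 11.3%, 10.4% and 16.2% in the knockdown libraries and 7.19%, 8.30% and 16.4% in the Reb libraries, in the same order. The 95% Clopper-Pearson intervals of these shares were at most 0.0276 percentage points wide. Since reads that carry no molecular identifier can stem from the same molecule, every interval given here covers counting error only.

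The identity of the cells was checked with marker genes. VIM, CD44, KRT8 and KRT18, which MDA-MB-231 cells express, were each at 31.8 RPKM or more in every library, and ESR1, PGR and CDH1, which they lack, were each at 0.174 RPKM or less. Of 14 markers of differentiated muscle, all 14 had a row in the knockdown table and 11 in the Reb table. TNNT1, a slow skeletal troponin T, ran from 65.1 to 186 RPKM and MYH3, an embryonic myosin heavy chain, from 1.29 to 6.61 RPKM, while every other measured muscle marker was at 0.444 RPKM or less. The smooth muscle markers MYH11 and ACTG2 were among these, DES was at 0 counts in all 3 knockdown libraries, and the cofactor MYOCD had at most 1 count there. The fibroblast markers, 6 in the knockdown table and 4 in the Reb table, summed to between 1.28 and 3.56 RPKM, most of it COL1A1. The word muscle-type therefore describes the gene families followed here and not the cell.

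Levels are given first, as the RPKM that the authors deposited, in which each count is divided by the gene's exon length and scaled to the total of its library. Across the 6 libraries the levels of the 43 genes spanned from 0.0252 RPKM for CNN1 with CDK16-sh2 to 1638 RPKM for ACTB with CDK16-sh1. By mean level, the 5 most abundant genes were ACTB, PFN1, ACTG1, MYH9 and TPM4. The 5 leading genes of each library made up between 57.7% and 70.1% of the summed RPKM of the set. At the other end, MYLK and ACTA2 averaged 0.946 and 1.00 RPKM over the libraries, and MEF2C 0.407 RPKM. By RPKM, the light chain kinase MYLK and the smooth muscle actin were therefore among the 4 lowest of the set, beside CNN1 and MEF2C. For MYLK this rests on division by an exon length of 22167 bases, the longest of the set. Counts scaled to the library size (CPM) placed it higher, at a mean of 17.2 in the knockdown experiment and 24.7 in the Reb experiment. RHOB, at 11.4 and 12.8, lay below MYLK on that measure.

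**Figure D1:**
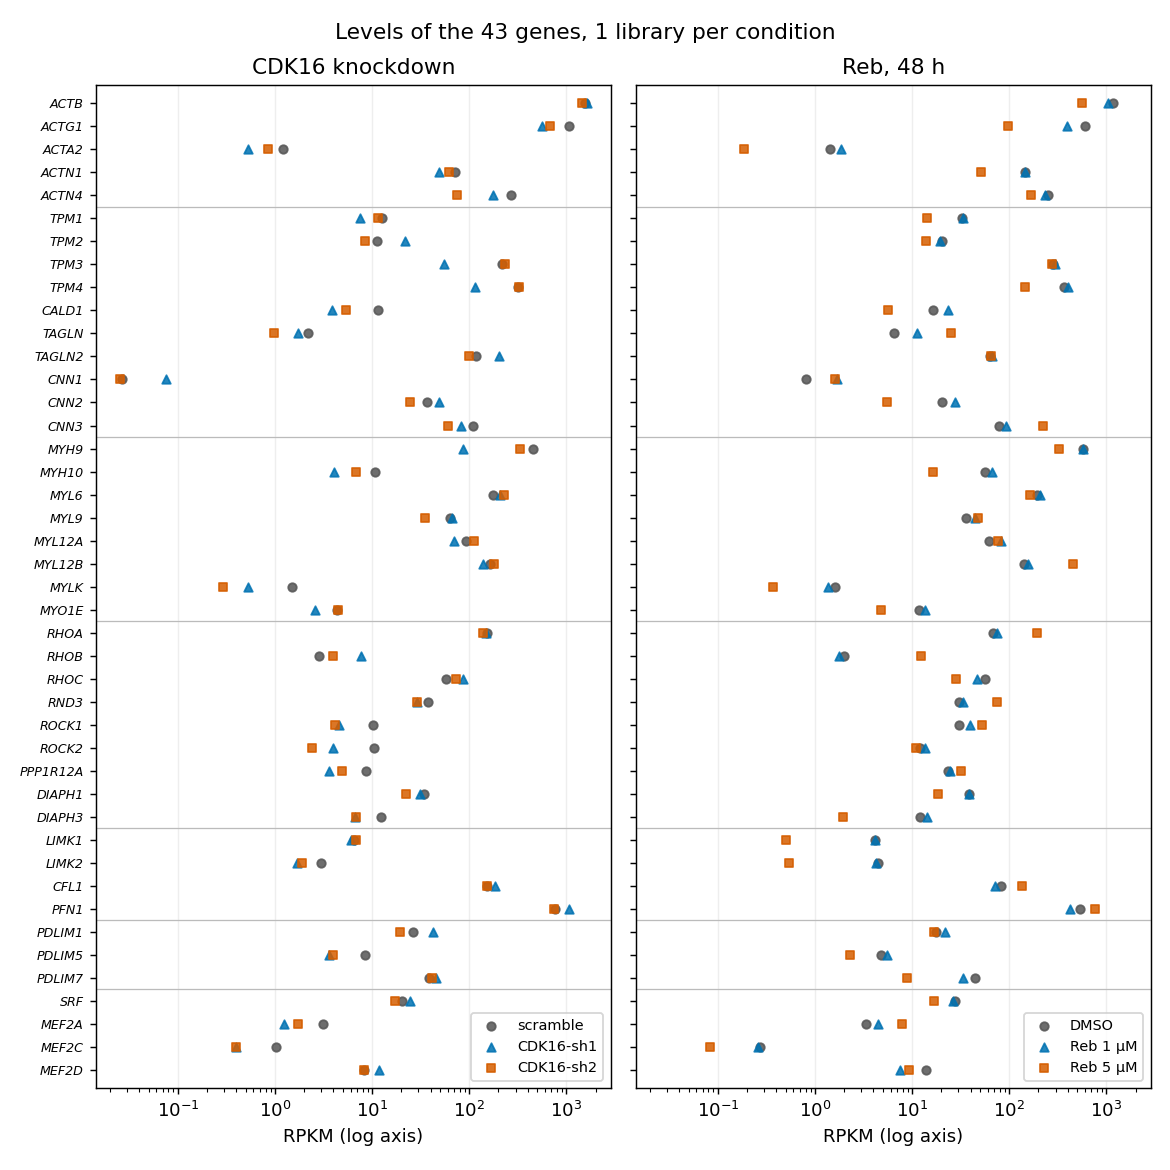
Level of each of the 43 genes in RPKM on a logarithmic axis, grouped by role from actins at the top to transcription factors at the bottom, with the knockdown libraries on the left and the Reb libraries on the right. Each point is 1 library; ACTB and PFN1 lie near the right edge in all 6, while MYLK, ACTA2, MEF2C and CNN1 lie at the left.

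Fold changes compare each treated library with its own control, as log2 ratios of CPM (counts scaled to the library size) after TMM scaling, which sets the scale so that the bulk of expressed genes does not move. Genes with a mean below 1 CPM in an experiment were left out, which kept 15295 genes of the knockdown experiment and 15655 of the Reb experiment. All 43 genes passed in the Reb experiment and 42 in the knockdown experiment, where CNN1 had 2, 7 and 2 counts. A gene is called lower or higher when it is at least 2-fold away from its control, the size that the study used.

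With CDK16-sh1, 13 of 42 genes lay at least 2-fold below the scramble library and 1 lay at least 2-fold above it. Over all genes tested, 6.86% were at least 2-fold lower and 4.33% at least 2-fold higher. The median log2 fold change of the set was -0.40, beside 0.00 over all genes. With CDK16-sh2, 5 of 42 genes were at least 2-fold lower and 0 higher, beside 7.62% and 2.2% of all genes, and the median was -0.23 beside 0.02. The share of the set that was lower therefore stood above the background in CDK16-sh1 and nearer to it in CDK16-sh2, where library totals in place of TMM made 8 genes of the set and 11.1% of all genes lower.

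MYLK, ROCK1, ROCK2 and MEF2C were at least 2-fold lower with both hairpins, where 1.44% of all genes were. No gene of the set was at least 2-fold higher with both, where 0.438% of all genes were. The 2 hairpins share 1 scramble library, so these are not independent comparisons.

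MYLK, the myosin light chain kinase, lies on chr3:123610049-123884331 on the minus strand of GRCh38. It was listed at 865 counts and 1.51 RPKM with the scramble shRNA, 372 counts and 0.525 RPKM with CDK16-sh1, and 179 counts and 0.294 RPKM with CDK16-sh2. The log2 fold changes were -1.49 (95% counting interval -1.67 to -1.32) and -2.15 (-2.41 to -1.93), the largest difference of any member with CDK16-sh2. MYLK was also at least 2-fold lower at Reb 5 µM, where its level went from 1.60 RPKM with DMSO through 1.37 at 1 µM to 0.370 at 5 µM. It was the only gene of the set that was lower in 3 of the 4 treated libraries, and it stayed at least 2-fold lower in these 3 under all 9 settings tried. The share of all genes lower in 3 treated libraries was not computed, and 27.2% of all genes were lower at Reb 5 µM.

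ROCK1 and ROCK2, the kinases that RhoA activates, were at about 10 RPKM with the scramble shRNA. ROCK1, on chr18:20946906-21111851, was at 10.3, 4.56 and 4.11 RPKM with the scramble shRNA, CDK16-sh1 and CDK16-sh2, from 2947, 1618 and 1255 counts. Its log2 fold changes were -1.14 (-1.23 to -1.05) and -1.12 (-1.22 to -1.03), alike within counting error. ROCK2, on chr2:11179761-11348330, was at 10.5, 3.98 and 2.42 RPKM from 2757, 1289 and 676 counts, with log2 fold changes of -1.37 (-1.47 to -1.28) and -1.92 (-2.04 to -1.80). Removing the trends of the fold change on GC content and exon length over all genes left ROCK2 at -0.78 and -1.66 and ROCK1 at -0.51 and -0.83, so ROCK1 was then within 2-fold with both hairpins.

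MEF2C, a transcription factor of muscle and neural genes on chr5:88717117-88904257, was listed at 313, 150 and 128 counts, or 1.03, 0.399 and 0.396 RPKM. The log2 fold changes were -1.32 (-1.63 to -1.05) and -1.17 (-1.49 to -0.88), and -0.79 and -0.92 without the GC and length trends. MEF2A was at 3.11, 1.23 and 1.71 RPKM and was lower with CDK16-sh1 at -1.30, with -0.66 for CDK16-sh2. MEF2D differed in sign from both relatives, at 0.51 and 0.17. SRF, on chr6:43171299-43181507, was within 2-fold with both hairpins. It was listed at 2186, 3264 and 2013 counts, or 20.1, 24.3 and 17.4 RPKM, with log2 fold changes of 0.30 (0.22 to 0.38) and -0.01 (-0.10 to 0.08).

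The 2 nonmuscle myosin II heavy chains set the hairpins apart. MYH9, the heavy chain of myosin IIA on chr22:36281281-36388018, was at 458 RPKM with the scramble shRNA, 85.7 with CDK16-sh1 and 334 with CDK16-sh2, from 106100, 24534 and 82208 counts. Its log2 fold change was -2.39 (-2.41 to -2.37) with CDK16-sh1, the largest of the set, and -0.26 (-0.27 to -0.25) with CDK16-sh2. MYH10, the heavy chain of myosin IIB, was at 10.7, 4.03 and 6.80 RPKM, with log2 fold changes of -1.38 and -0.45. The light chains moved less. MYL6, the essential light chain, was at 0.26 and 0.59, and MYL9, MYL12A and MYL12B, the regulatory light chains, ran from -0.64 to 0.47 over both hairpins. MYO1E, a membrane-linked class I myosin, was at -0.74 and 0.22.

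Tropomyosins, which line the actin filament, split in the same way. TPM3 was at 219 RPKM with the scramble shRNA, 54.6 with CDK16-sh1 and 236 with CDK16-sh2, a log2 fold change of -1.97 (-2.00 to -1.94) and then 0.31 (0.29 to 0.32). TPM4, on chr19:16067021-16103005, was at 319, 115 and 328 RPKM from 61057, 27300 and 66964 counts, with log2 fold changes of -1.44 (-1.46 to -1.42) and 0.24 (0.22 to 0.26). TPM1 was at -0.71 and 0.05. TPM2 went the other way with CDK16-sh1, at 0.99, just inside the 2-fold limit, and -0.21 with CDK16-sh2. CALD1, caldesmon, which restrains myosin on the thin filament, was at 11.6, 3.91 and 5.36 RPKM, with log2 fold changes of -1.54 and -0.92, the second just inside the limit. The calponins CNN2 and CNN3 and the transgelins TAGLN and TAGLN2 all stayed within 2-fold, between -0.95 for TAGLN with CDK16-sh2 and 0.83 for TAGLN2 with CDK16-sh1.

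The hairpins differed from each other by at least 2-fold at 5 of the 42 genes. TPM3, TPM4 and MYH9 were higher with CDK16-sh2 by 2.28, 1.68 and 2.13 on the log2 scale, and ACTN4 and TPM2 were lower by 1.07 and 1.19. The difference exceeded counting error at 39 of the 42 genes. Of the 42, 19 were below 0 with both hairpins, 9 above 0 with both and the rest on opposite sides. The matching shares over all genes were not computed, so these counts are not read as particular to the set.

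Among actins and crosslinkers, the 2 cytoplasmic actins did not move alike. ACTB, on chr7:5527151-5563784, was at 1542, 1638 and 1446 RPKM from 129691, 170388 and 129451 counts, and its log2 fold changes were 0.12 (0.11 to 0.13) and 0.10 (0.09 to 0.12). ACTG1, on chr17:81509971-81523847, was at 1061, 565 and 677 RPKM from 81580, 53767 and 55410 counts, with log2 fold changes of -0.88 (-0.89 to -0.86) and -0.45 (-0.47 to -0.44). ACTA2, the smooth muscle actin on chr10:88935074-88991339, rested on 93, 50 and 69 counts, or 1.21, 0.526 and 0.843 RPKM. Its log2 fold changes were -1.14 (-1.70 to -0.66) and -0.32 (-0.79 to 0.14), so the interval with CDK16-sh1 reached across the 2-fold limit and that with CDK16-sh2 held 0. ACTN4, a crosslinking alpha-actinin, was at 272, 175 and 74.4 RPKM, with log2 fold changes of -0.60 and -1.67, and was the only gene lower with CDK16-sh2 but not with CDK16-sh1. Its relative ACTN1 was at -0.53 and 0.00.

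In RhoA signaling, RHOB was the only gene of the set that was at least 2-fold higher with a hairpin. This early-response GTPase, a relative of RHOA, was listed at 176, 578 and 258 counts, or 2.87, 7.63 and 3.96 RPKM, with log2 fold changes of 1.43 (1.19 to 1.69) and 0.65 (0.38 to 0.94). RHOA stood at 0.03 and 0.08 and RHOC at 0.59 and 0.52. PPP1R12A, the targeting subunit of myosin phosphatase, was at 8.56, 3.62 and 4.94 RPKM, with log2 fold changes of -1.21 and -0.59. RND3, which antagonizes RhoA signaling, and the formins DIAPH1 and DIAPH3 were within 2-fold, from -0.84 to -0.12.

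Of the actin turnover and adaptor genes, PDLIM5 alone was at least 2-fold away under knockdown. PFN1, profilin, which feeds actin monomers to formins and lies on chr17:4945652-4949061, was at 757, 1063 and 741 RPKM from 38858, 67495 and 40479 counts, with log2 fold changes of 0.52 (0.50 to 0.54) and 0.17 (0.15 to 0.19). CFL1, the severing protein cofilin, was at 0.28 and 0.18. LIMK1 and LIMK2, the kinases that inactivate cofilin, were between -0.77 and 0.27. Of the PDZ-LIM adaptors, which tie actinin to kinases, PDLIM5 was lower with CDK16-sh1 at -1.20 and stood at -0.93 with CDK16-sh2, PDLIM1 was at 0.69 and -0.25, and PDLIM7 at 0.26 and 0.31.

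**Figure D2:**
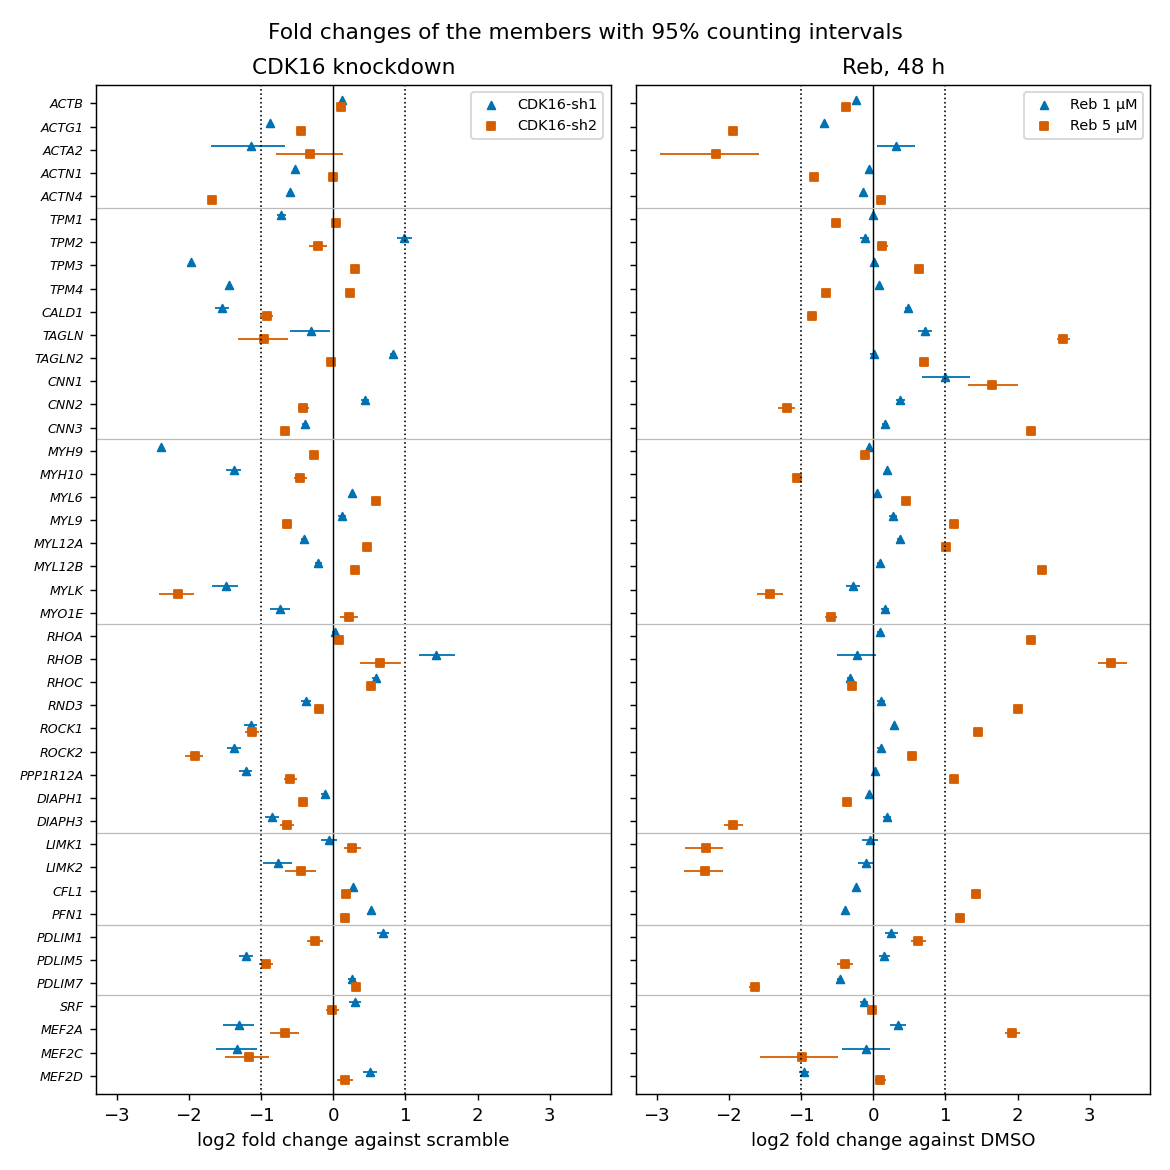
Log2 fold change of each gene against its own control, with triangles and squares for the 2 treated libraries of each experiment, horizontal bars for 95% counting intervals and dotted lines at 2-fold. MYLK, ROCK1, ROCK2 and MEF2C lie left of the dotted line with both hairpins, MYH9, TPM3 and TPM4 with CDK16-sh1 alone, and the squares of Reb 5 µM reach from -2.33 to 3.30 while the triangles of Reb 1 µM stay within 2-fold.

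The only fit with residual degrees of freedom took both hairpin libraries as 1 group against the scramble library, so that the difference between hairpins is the spread. It called 0 of 42 genes at an adjusted p of at most 0.05 and at least 2-fold in the quasi-likelihood test of edgeR, adjusted by Benjamini-Hochberg, where 0% of all 15295 genes were called. The scramble side of this fit has 1 library, so unadjusted p-values are not counted, and DESeq2 made no call among the 42 either. The smallest adjusted p of the set in edgeR's fit was 0.79, that of MYLK.

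Fold changes with CDK16-sh1 ran with the GC content of the transcripts. Across the 42 genes of that library, Pearson's r between GC content and log2 fold change was 0.56, beside 0.45 over 15232 genes, and with exon length it was -0.68 beside -0.24. With CDK16-sh2 the r with GC was 0.35 beside 0.12. These are descriptions across genes of the same libraries, which are not independent replicates. The 17 genes with a GC content below 50%, TPM3, TPM4, ROCK1, ROCK2 and MEF2C among them, had a median of -1.20 with CDK16-sh1, and 10 of the 17 were at least 2-fold lower, beside 10.2% of all genes of that class. The 25 others had a median of 0.12, and 3 of the 25 were lower, namely ACTA2, MYH9 and MYLK, beside 3.16% of all genes of that class. With the trends on GC content and length removed, the medians were -0.58 and -0.22 and 8 of the 42 genes were at least 2-fold lower, beside 5.09% of all genes. MYH9, at a GC content of 58.3%, stood at -2.54 in that setting. TPM3, TPM4, CALD1, MYH9, MYH10 and MYLK with CDK16-sh1, and ACTN4, MYLK and ROCK2 with CDK16-sh2, were at least 2-fold lower under all 9 settings. The part of the GC trend in the other differences was not tested, and the shares of all genes that held under all 9 settings were not computed.

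**Figure D3:**
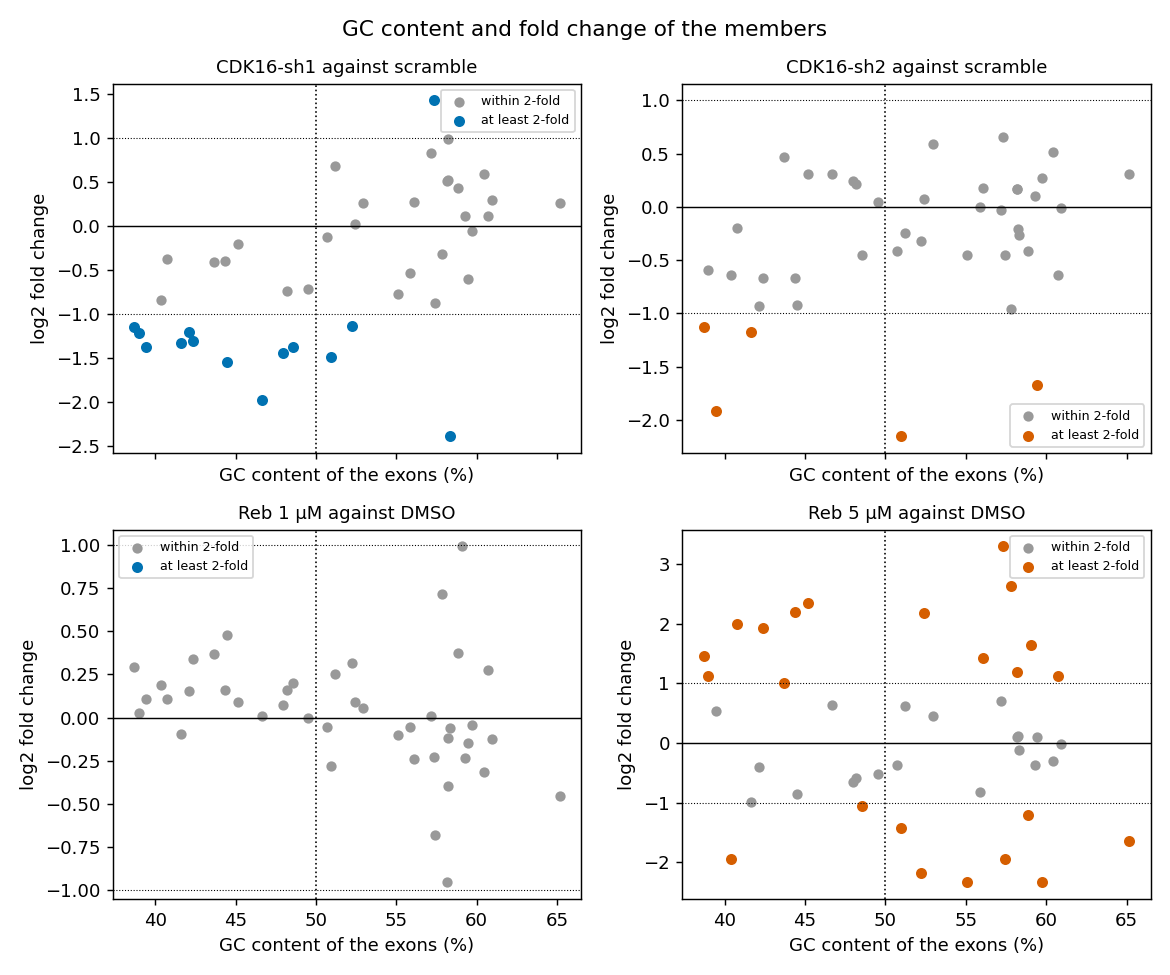
GC content of the exons in percent against the log2 fold change in each of the 4 treated libraries, with coloured points at least 2-fold from the control, dotted horizontal lines at 2-fold and a dotted vertical line at 50%. With CDK16-sh1 all 17 genes below 50% GC lie under 0, and 10 of them are at least 2-fold lower.

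With Reb at 1 µM, 0 of 43 genes were at least 2-fold lower and 0 at least 2-fold higher, beside 1.92% and 1.28% of all 15655 genes, and the median was 0.03 beside 0.00. The extremes were MEF2D at -0.96 (-1.03 to -0.88), from 14.0 RPKM with DMSO to 7.45, and CNN1 at 0.99 (0.68 to 1.34), from 118 to 241 counts. TAGLN was at 0.72 (0.62 to 0.82) and ACTG1 at -0.68 (-0.70 to -0.67).

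At 5 µM the set split in both directions. There, 9 of 43 genes were at least 2-fold lower and 14 at least 2-fold higher, beside 27.2% and 23.6% of all genes. The median was 0.10 beside -0.07 over all genes. Of the set, 20.9% were lower and 32.6% higher, below the background in the first direction and above it in the second. No gene of the set was at least 2-fold lower, or higher, at both doses, where 1.08% and 0.645% of all genes were. The libraries hold the RNA of many cells, so fewer cells that express a gene and less RNA per cell cannot be told apart.

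The scale decided many of these calls. Library totals in place of TMM moved the median of all genes to -0.75 and that of the set to -0.59, with 18 genes lower and 7 higher, beside 43.4% and 11.7% of all genes. The 9 genes lower by library totals but within 2-fold by TMM were ACTB, ACTN1, TPM1, TPM4, CALD1, MYO1E, DIAPH1, PDLIM5 and MEF2C. Under either scaling, 20 of the 43 genes lay below the median of all genes. With the trends on GC content and length removed, the median of the set was 0.61 beside 0.02 over all genes. In that setting 17 of the 43 lay below the median of all genes. Of the calls, 8 lower and 7 higher held under all 5 scalings. The lower were ACTG1, ACTA2, CNN2, MYLK, DIAPH3, LIMK1, LIMK2 and PDLIM7, and the higher TAGLN, CNN3, MYL12B, RHOA, RHOB, RND3 and MEF2A. The shares of all genes that held under all 5 scalings were not computed, so these counts are not read as particular to the set.

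**Figure D4:**
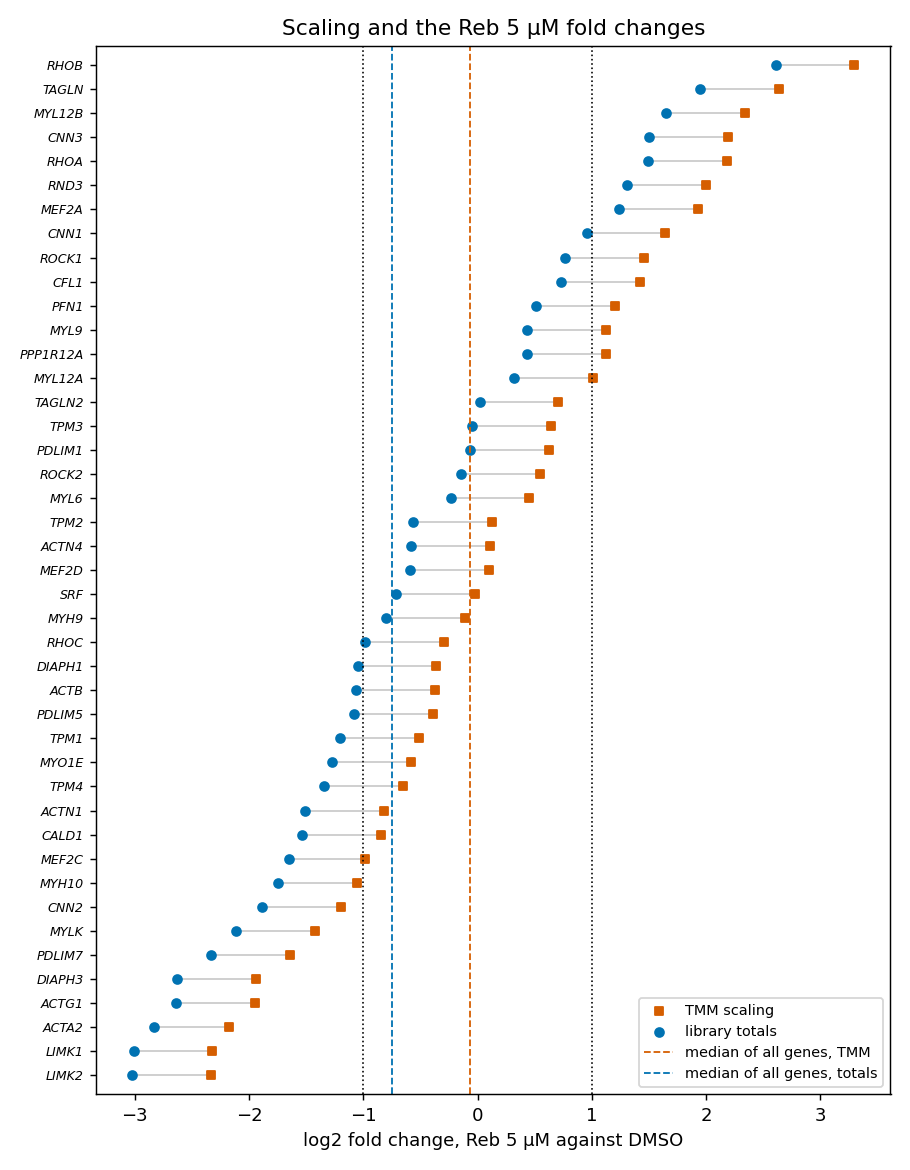
Log2 fold change of each gene at Reb 5 µM under TMM scaling (squares) and library totals (circles), ordered by value, with dashed lines at the median of all genes under each and dotted lines at 2-fold. All points shift left by about the same amount, and 7 genes from RHOB to MEF2A stay right of the 2-fold line under both.

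RHOB showed the largest difference of the set. It was listed at 240 counts and 2.01 RPKM with DMSO, 208 counts and 1.78 RPKM at 1 µM, and 1104 counts and 12.4 RPKM at 5 µM, with log2 fold changes of -0.23 (-0.50 to 0.04) and 3.30 (3.11 to 3.52). RHOA was at 68.3, 75.4 and 192 RPKM, with log2 fold changes of 0.09 and 2.18, and RND3 at 30.2, 33.8 and 75.0 RPKM, with 0.11 and 2.00. ROCK1 was at 30.8, 39.0 and 52.3 RPKM from 17201, 21411 and 21875 counts, and at 0.29 (0.26 to 0.32) and 1.45 (1.43 to 1.48). PPP1R12A was at 0.03 and 1.12, and ROCK2, from 6218, 6798 and 4208 counts, at 0.11 (0.06 to 0.16) and 0.54 (0.49 to 0.60). By library totals ROCK1 was at 0.76, PPP1R12A at 0.43 and ROCK2 at -0.15. RHOC was at -0.32 and -0.29. DIAPH3, a formin of dividing cells, was at 11.9, 14.1 and 1.93 RPKM, with log2 fold changes of 0.19 and -1.94, while DIAPH1 was at -0.06 and -0.36.

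The cofilin pathway divided at 5 µM between the kinases and their target. LIMK1 was listed at 1432, 1410 and 132 counts and LIMK2 at 1369, 1298 and 125 counts, with log2 fold changes at 5 µM of -2.32 (-2.60 to -2.07) and -2.33 (-2.62 to -2.08). CFL1 was at 81.6, 71.6 and 136 RPKM, with log2 fold changes of -0.24 and 1.42, or 0.73 at 5 µM by library totals, which is within 2-fold. Within each library, which no scaling touches, the level of CFL1 per LIMK1 was 19.8 with DMSO, 17.3 at 1 µM and 267 at 5 µM. PFN1 was at 541, 427 and 770 RPKM from 54092, 41844 and 57634 counts, with log2 fold changes of -0.39 (-0.41 to -0.38) and 1.20 (1.18 to 1.22), or 0.51 at 5 µM by library totals.

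Among thin-filament proteins, TAGLN and the calponins moved most. TAGLN, transgelin, was at 6.53 RPKM with DMSO, 11.1 at 1 µM and 25.2 at 5 µM, with log2 fold changes of 0.72 and 2.63 (2.55 to 2.73). CNN3 was at 79.2, 91.8 and 224 RPKM, with 0.16 and 2.19. CNN1 was listed at 118, 241 and 173 counts, with 0.99 and 1.64, or 0.96 at 5 µM by library totals. CNN2 went the other way, at 20.6, 27.6 and 5.55 RPKM, with 0.38 and -1.20. The tropomyosins stayed within 2-fold under TMM scaling, with TPM1 at -0.51, TPM2 at 0.12, TPM3 at 0.64 and TPM4 at -0.65 (-0.67 to -0.64) at 5 µM. By library totals TPM1 was at -1.21 and TPM4 at -1.34 at 5 µM, both at least 2-fold lower. TPM4 itself was at 365, 398 and 144 RPKM from 136237, 145835 and 40216 counts, and at 0.07 (0.06 to 0.09) at 1 µM. CALD1 was at 0.48 and -0.85.

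Under TMM scaling, the regulatory light chains were at least 2-fold higher at 5 µM and the heavy chains were not. With the trends on GC content and length removed, MYL9, MYL12A and MYL12B were at 1.60, 0.78 and 1.90 at 5 µM. In that setting MYH9 was at 0.61 and MYH10 at -0.83. MYL12B was at 143, 158 and 449 RPKM, with log2 fold changes of 0.09 and 2.34 (2.31 to 2.37). MYL9 was at 0.28 and 1.12 and MYL12A at 0.37 and 1.01, the latter just past 2-fold, and by library totals these were 0.43 and 0.32 at 5 µM. MYH9 was at 572, 569 and 328 RPKM from 257665, 251621 and 110542 counts, with log2 fold changes of -0.06 (-0.07 to -0.05) and -0.11 (-0.12 to -0.10). MYH10 was at 55.7, 66.2 and 16.6 RPKM, with 0.20 and -1.05. MYLK was listed at 1789, 1499 and 309 counts, with -0.28 (-0.38 to -0.18) and -1.42 (-1.60 to -1.25), and MYL6 and MYO1E were at 0.45 and -0.58 at 5 µM.

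Of the actins, ACTG1 stood below DMSO at 1 µM and further below at 5 µM. It was at 602 RPKM with DMSO, 389 at 1 µM and 96.9 at 5 µM, from 90167, 57156 and 10857 counts, with log2 fold changes of -0.68 and -1.95 (-1.97 to -1.92). ACTB was at 1172, 1031 and 561 RPKM from 191917, 165755 and 68770 counts, with log2 fold changes of -0.23 (-0.24 to -0.23) and -0.37 (-0.39 to -0.36), or -1.06 at 5 µM by library totals. ACTA2 was listed at 213, 270 and 21 counts, or 1.42, 1.84 and 0.187 RPKM, with 0.32 (0.05 to 0.58) and -2.18 (-2.96 to -1.59). ACTN1 was at -0.82 and ACTN4 at 0.11 at 5 µM.

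Adaptors and factors also moved apart. PDLIM7 was at 44.3, 33.4 and 8.81 RPKM, with log2 fold changes of -0.46 and -1.64 (-1.72 to -1.56), while PDLIM1 was at 0.63 and PDLIM5 at -0.39 at 5 µM. MEF2A was at 3.37, 4.41 and 7.96 RPKM, with 0.34 and 1.93 (1.83 to 2.04). MEF2C had 160, 152 and 37 counts, or 0.271, 0.262 and 0.0836 RPKM, with -0.10 (-0.43 to 0.23) and -0.98 (-1.56 to -0.48), just inside the limit. SRF was at 27.6, 26.1 and 16.9 RPKM from 5825, 5423 and 2667 counts, with -0.13 (-0.18 to -0.07) and -0.02 (-0.09 to 0.05), or -0.71 at 5 µM by library totals. With the trends on GC content and length removed, SRF was at 0.61 at 5 µM.

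With both doses pooled and set against DMSO, the quasi-likelihood test of edgeR called 0 of 43 genes at an adjusted p of at most 0.05 and at least 2-fold, where 0.0767% of all genes were called. The DMSO side of that fit also has 1 library, and DESeq2 made no call among the 43 either. A fit of the same 3 libraries with log2(dose + 1) as a linear term called 12 of 43 genes, beside 24.5% of all genes. These were ACTG1, DIAPH3, LIMK1, LIMK2 and PDLIM7, which were lower with dose, and TAGLN, CNN3, MYL12B, RHOA, RHOB, RND3 and MEF2A, which were higher. This fit rests on 1 library at each dose and on the assumed shape of the dose term.

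Shares of related isoforms within a library are not moved by the scale between libraries. They were computed as each gene's count per exon length over the sum of its family, in 13 families. The 95% Clopper-Pearson intervals of the shares of counts were at most 12.5 percentage points wide, in the LIMK family at Reb 5 µM, and at most 4.30 in every other family. The leading isoform differed from the control in 1 family with each hairpin, in 0 at Reb 1 µM and in 2 at Reb 5 µM. These were the ROCK kinases with both hairpins, and the tropomyosins and PDZ-LIM adaptors at Reb 5 µM. By counts not divided by length, they were instead the regulatory light chains with CDK16-sh1 and the alpha-actinins with CDK16-sh2. At Reb 5 µM they were then the tropomyosins, the alpha-actinins and the family of RHOA, RHOB and RHOC.

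Among the actins, ACTB made up 59.2% with the scramble shRNA, 74.3% with CDK16-sh1 and 68.1% with CDK16-sh2. It made up 66.0% with DMSO, 72.5% at 1 µM and 85.2% at 5 µM, so that the balance of ACTB over ACTG1 was higher in all 4 treated libraries than in their controls. ACTA2 took at most 0.129% of the family, at Reb 1 µM. TPM3 and TPM4 together made up most of the tropomyosins in each library, and TPM2 went from 1.99% to 10.9% with CDK16-sh1 and to 1.44% with CDK16-sh2. At Reb 5 µM TPM3 took 61.5% of the family and TPM4 32.3%, against 40.5% and 52.0% with DMSO.

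Of the regulatory light chains, MYL12B took 59.5% with DMSO, 55.4% at 1 µM and 78.2% at 5 µM, and between 50.8% and 54.7% in the knockdown libraries. RHOA took 54.0%, 60.9% and 82.5% of the summed level of RHOA, RHOB and RHOC in the Reb libraries, while RHOC took 44.4%, 37.7% and 12.2%. RHOB stayed the rarest of the family even where its own level was highest, at 5.30% with Reb 5 µM. ROCK1 took 49.4% of the ROCK kinases with the scramble shRNA, 53.4% with CDK16-sh1 and 62.9% with CDK16-sh2, and 71.6%, 74.2% and 82.6% in the Reb libraries. LIMK1 took 48.3%, 49.3% and 48.6% in the Reb libraries, so the 2 LIM kinases kept their balance while both were lower. In the PDZ-LIM family PDLIM1 went from 26.4% with DMSO to 60.3% at 5 µM, and MEF2A went from 19.1% of the MEF2 genes with DMSO to 46.0%. With CDK16-sh1, by contrast, MEF2A went from 24.9% to 9.23% and MEF2D from 66.8% to 87.8%. MEF2A has a GC content of 42.4% and MEF2D of 58.2%. With the GC and length trends removed, their log2 fold changes with CDK16-sh1 were -0.89 and 0.31. The part of the GC trend in these shares and in those of TPM2 was not tested.

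**Figure D5:**
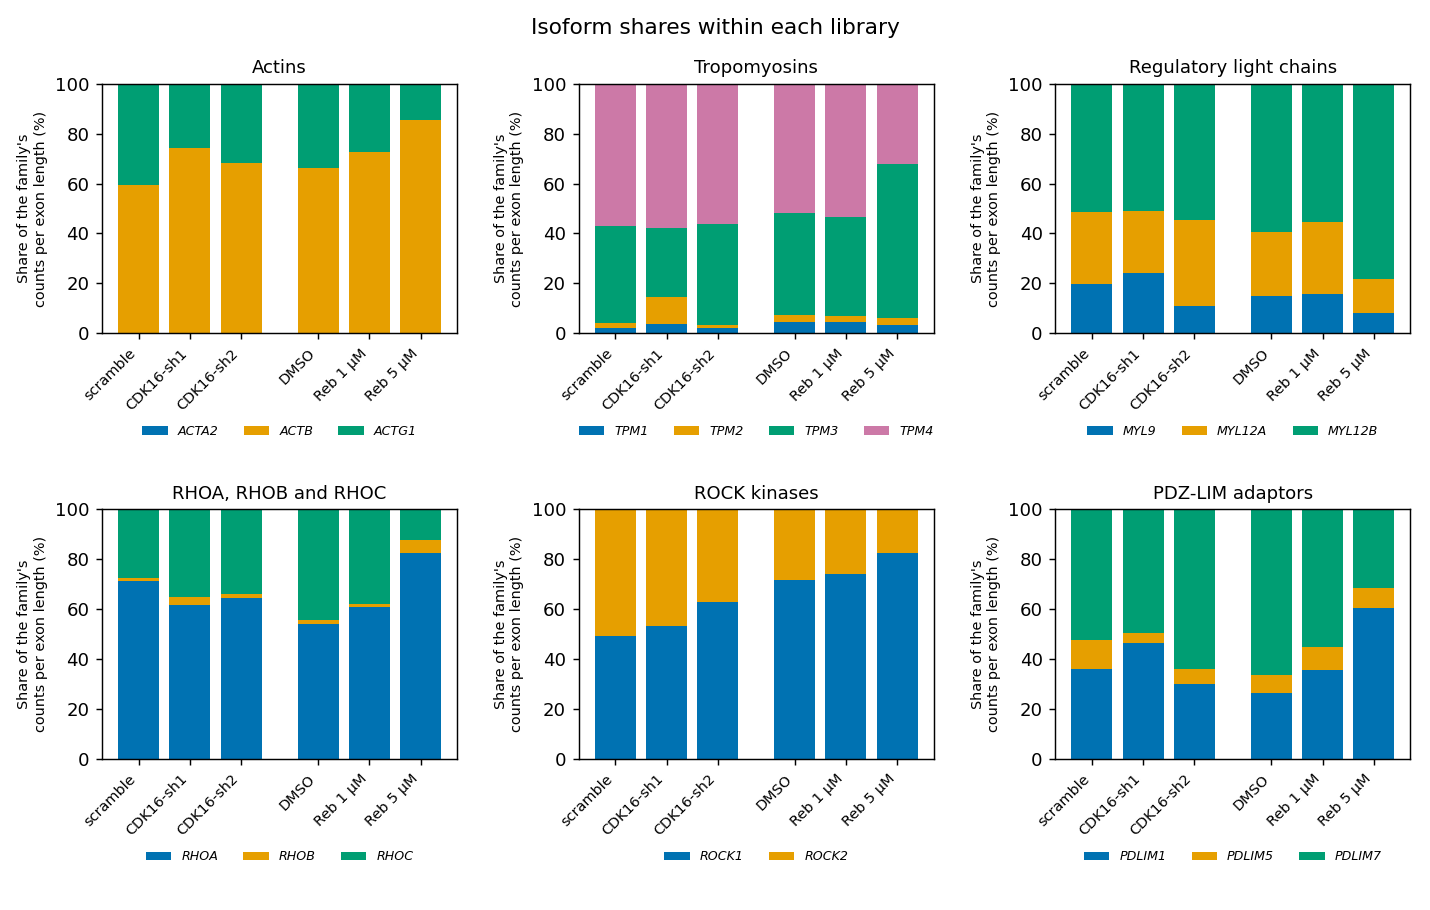
Share of each isoform, in percent of its family's summed counts per exon length, in the 6 libraries for 6 of the 13 families; bars start at 0 and each bar is 1 library. ACTB takes a larger share than in the control in all 4 treated libraries, and at Reb 5 µM TPM3, MYL12B, RHOA, ROCK1 and PDLIM1 each take the largest share of their family among the 3 Reb libraries.

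Both experiments differ in agent, duration and control, so the values are set side by side without a test of the difference. ROCK1, PPP1R12A and MEF2A were at least 2-fold lower with CDK16-sh1 and at least 2-fold higher at Reb 5 µM. With the trends on GC content and length removed, they were within 2-fold with CDK16-sh1, at -0.51, -0.58 and -0.89. By library totals, ROCK1 (0.76) and PPP1R12A (0.43) were within 2-fold at Reb 5 µM, and MEF2A was at 1.24. The share of all genes with this pattern was not computed. RHOB was at least 2-fold higher with CDK16-sh1 and at Reb 5 µM. MYLK was lower with both hairpins and at Reb 5 µM. The shares of all genes with the patterns of RHOB and MYLK were not computed either. ACTB, ACTN1, TPM1, TPM2, TAGLN2, MYL6, MYO1E, RHOC, DIAPH1, PDLIM1, SRF and MEF2D were within 2-fold in all 4 treated libraries under TMM scaling.

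Promoter sequences were read for 40 of the 43 genes from RefSeq windows on GRCh38.p14 that reach from 250 bases before to 50 after each start. ACTB, TAGLN and MYL9 had no entry. The CArG box was searched as CC, 6 letters of A or T, then GG, and is its own reverse complement as a pattern, so both strands are covered. It was found in 9 of the 40 genes, beside 1.29% of 35116 windows and 1.60% of 27305 symbols. Genes can have several windows, and some windows start inside the gene. The sites of these 9 genes are shown because they carry the letters of the factor that is itself a member, with the box in capitals and 10 flanking bases on each side, 5′ to 3′ on the gene's strand. For SRF, the stretch from the first to the last base of its 2 boxes is shown.
ACTG1, chr17:81512874-81512903, minus strand: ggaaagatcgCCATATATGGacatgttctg
ACTN1, chr14:68977718-68977747, minus strand: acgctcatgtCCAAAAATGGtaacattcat
TPM4, chr19:16067355-16067384, plus strand: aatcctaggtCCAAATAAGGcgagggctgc
CNN2, chr19:1026509-1026538, plus strand: cgcctccaggCCTTATAAGGacatttgcgc
MYLK, chr3:123620623-123620652, minus strand: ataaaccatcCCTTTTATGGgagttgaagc
MYO1E, chr15:59372883-59372912, minus strand: gctgagttctCCATTTATGGacagattgcc
RND3, chr2:150487748-150487777, minus strand: ctcccaggctCCATAAAAGGggaggaggca
ROCK2, chr2:11345491-11345520, minus strand: aaatgtacttCCTTAAATGGgtttactggg
SRF, chr6:43171239-43171268, plus strand: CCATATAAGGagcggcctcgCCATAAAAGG

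The boxes lie between 10 and 173 bases upstream of the window's start site, counted to the first base of the box. The MYLK window belongs to a start site 263783 bases inside the deposited gene, so its box, which falls in an exon of other MYLK transcripts in GENCODE 29, belongs to an internal start and not to the gene's outer promoter. The RND3 window likewise starts 51316 bases inside its gene and that of ACTG1 11048 bases inside. The boxes of ACTG1 and MYO1E also overlap annotated exons, those of ACTN1, TPM4, RND3 and ROCK2 lie in introns of longer transcripts, and those of CNN2 and SRF lie upstream of the gene. The 9 genes did not move as 1 group. At Reb 5 µM their log2 fold changes ran from -1.95 for ACTG1 to 2.00 for RND3 with a median of -0.65, beside 0.12 over the 31 genes whose windows were read and held no box. With CDK16-sh1 the median was -0.74 beside -0.40 over 30 such genes, and with CDK16-sh2 -0.19 beside -0.23. A match is a description of letters and not of a bound site.

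A MEF2 site was searched in the 10-letter form with a central run of A or T, which is also its own reverse complement. It was found in 4 of the 40 genes, beside 2.99% of the windows and 3.67% of the 27305 symbols. These 4 are shown because 2 of them are MEF2 factors, with the site in capitals.
MYL12A, chr18:3252107-3252136, plus strand: gtccacagacTTATTTTTAGaccaatggca
DIAPH3, chr13:60013220-60013249, minus strand: catctattagCTAATAATAGgcctcatgtg
MEF2A, chr15:99565951-99565980, plus strand: ggcttgtctcCTAAAAATAGccccggtgtg
MEF2C, chr5:88824500-88824529, minus strand: atattccataTTATTTTTAAggtgttctca

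The windows of MEF2C, DIAPH3 and MYL12A start 79913, 150798 and 4794 bases inside the deposited genes, and that of MEF2A 567 bases inside. The sites of MEF2C, DIAPH3 and MYL12A lie in introns, and that of MEF2A overlaps an annotated exon. These 4 genes were all below 0 with CDK16-sh1, from -1.32 for MEF2C to -0.40 for MYL12A. So were 27 of the 42 members measured there, among them all 17 with a GC content below 50%, the class that holds these 4. With CDK16-sh2 the 4 genes ran from -1.17 for MEF2C to 0.47 for MYL12A, and at Reb 5 µM from -1.94 for DIAPH3 to 1.93 for MEF2A.

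Some counts rest on shared sequence. The kit was stranded, but the strand setting of the counting was not given in the sources used here, so reads of a gene and of an overlapping gene on the other strand cannot be told apart. PFN1 shares 111 exon bases with ENO3, which had 17314 counts with the scramble shRNA, TPM4 shares 652 with CTD-2231E14.2, which had 9123, and CFL1 shares 357 with SNX32, which had 5193. ACTA2 shares 380 exon bases with FAS and 516 with ACTA2-AS1, which had 87 and 26 counts beside its own 93. MYL6 and MYL6B share 89 bases on the same strand. Rows named as pseudogenes of TPM3 held 5.54% of the counts of the gene and its pseudogenes together with CDK16-sh1, and those of ACTG1 held 1.17% at Reb 5 µM, the highest share of any other member.

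Other genes of the pathway were taken from 4 lists, whose counts stand beside these shares of all genes. With CDK16-sh1, 6.86% were at least 2-fold lower and 4.33% higher, and with CDK16-sh2 7.62% and 2.2%. At Reb 1 µM they were 1.92% and 1.28%. At Reb 5 µM they were 27.2% and 23.6%, or 43.4% and 11.7% by library totals. Of the SRF cofactors and targets, 17 of 19 were measured in each experiment. With CDK16-sh1, 1 was at least 2-fold lower and 1 higher, with CDK16-sh2 6 lower and 0 higher, at Reb 1 µM 3 lower and 0 higher, and at 5 µM 5 lower and 3 higher, or 9 and 2 by library totals. MKL2, the cofactor MRTF-B, was at -1.20 and -1.19 with the 2 hairpins and VCL, vinculin, at -0.82 and -1.73, while MKL1 (0.48 and 0.27) and ZYX, zyxin (0.92 and 0.22), stood above 0 with both. Under Reb the matricellular genes CTGF (-1.15 and -0.92) and CYR61 (-0.75 and -1.92) were lower, and FHL1 (0.06 and 1.15) stood above 0 at both doses.

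Of 33 regulators of myosin and RhoA, 31 were measured. Those at least 2-fold lower numbered 1 with CDK16-sh1, 2 with CDK16-sh2, 0 at Reb 1 µM and 8 at 5 µM, and those at least 2-fold higher 0, 0, 0 and 6, with 13 lower and 2 higher at 5 µM by library totals. PPP1CB, the catalytic subunit that works with PPP1R12A, was at -0.86 and -0.79 with the hairpins, and DAPK1 at -0.70 and -1.57, while ARHGDIA (0.87 and 0.45) and PPP1R14B (0.77 and 0.39) stood above 0. Under Reb, MYO10 was at -0.70 and -0.63 and ARHGEF2, an exchange factor for RhoA, at -0.48 and -2.67, while PPP1R12B was at 0.37 and 2.37.

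All 43 genes of the actin assembly and bundling list were measured. In the same order of libraries, 4, 3, 0 and 7 were at least 2-fold lower and 0, 1, 0 and 10 at least 2-fold higher, and library totals turned the balance at 5 µM to 15 lower and 6 higher. CAP2 was at -0.95 and -2.14 with the hairpins, RDX at -1.17 and -0.49, TMSB10 at 0.69 and 0.36, and INF2 at 0.54 and 0.31. Under Reb the formins FMNL3 (-0.48 and -1.57) and FMNL1 (-0.93 and -0.36) stood below 0, and PFN2 (0.60 and 0.95) and LCP1 (0.59 and 0.45) above 0, with LCP1 at -0.24 at 5 µM by library totals. Of 9 MEF2 and PDZ-LIM partners, 8 were measured. With CDK16-sh1 0 were lower and 1 higher, with CDK16-sh2 2 lower, at Reb 1 µM 0 in either direction and at 5 µM 6 lower and 0 higher, or 8 and 0 by library totals. Of the class IIa deacetylases, which repress MEF2, HDAC9 was at -0.84 and -0.49 with the hairpins and -0.64 and -1.09 under Reb, and HDAC4 at -0.45 and -0.38 with the hairpins. HDAC5 was at -0.72 and -1.05 under Reb but stood at 0.68 with CDK16-sh1, and HDAC7 stood at 0.36 there. PDLIM4 (0.99 and 0.62) and MEF2B (1.39 and 0.58) stood above 0 with the hairpins.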

How the data were processed

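RNA-seq was performed on 6 libraries of MDA-MB-231 cells, 1 per condition. The authors deposited whole-number read counts per gene symbol without normalization, and RPKM values computed from the same counts. Per the labels, Trimmomatic, featureCounts and Subread 1.5.1 were used with GRCh38, and the aligner and the strand setting were not given in the sources used here. Samples were grouped by the treatment label.

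The counts were analysed in R 4.3.3 with edgeR 4.0.16 and DESeq2 1.42.0, and tables and promoters in Python 3.11.15. Log2 fold changes are ratios of CPM with TMM factors and a prior count of 2. Genes whose mean was below 1 CPM were left out. Intervals are 95% Clopper-Pearson intervals of the 2 libraries' counts. The test across all genes took both treated libraries of an experiment as 1 group (quasi-likelihood test of edgeR, adjusted p of at most 0.05 and at least 2-fold). GC content came from GENCODE 29, which gave a value for 15232 of 15295 and 15581 of 15655 genes. Exon overlaps came from the exon positions that the authors deposited with the counts. The steps were tested on simulated data. The genes and lists were chosen with earlier results of these data known.

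Every member is named. Counts in all 6 libraries and both intervals are given for those at least 2-fold away in both treated libraries of an experiment or in 3 or more treated libraries, for the 5 with the highest mean RPKM, and for MYLK, SRF and ACTA2. Of each other list, the 2 largest falls and the 2 largest rises are named per experiment, taking only genes that averaged 5 CPM or more and had 1 sign in both treated libraries, in order of the smaller of their 2 absolute changes. Some genes that this rule names are not reported here. Fold changes of members shown with no interval and other genes outside these rules were chosen for their role. Alternatives were library totals, DESeq2 size factors, totals without mitochondrial transcripts, other filters and prior counts, RPKM with 0.1 added, a 1.5-fold threshold, and removal of GC and length trends.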

Additional observations from a re-analysis of the deposited data

How the results depend on the processing

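With CDK16-sh1 the count of lower genes was 13 under each scaling and 8 with the trends on GC content and length removed, and that of higher genes became 5 at a 1.5-fold threshold. Over all genes, between 6.09% and 7.69% were lower under the scalings and 5.09% with the trends removed. With CDK16-sh2 the count of lower genes was 8 with library totals, with totals without mitochondrial transcripts and with RPKM, where the medians were -0.42, -0.34 and -0.42. In that order, 11.1%, 9.54% and 9.60% of all genes were lower, with medians of -0.18, -0.09 and -0.17. At 1.5-fold, 13 genes of the set were lower and 2 higher with CDK16-sh2. Of the 4 genes lower with both hairpins, 1 remained with the trends removed. At Reb 1 µM, 1 gene was higher with library totals, with totals without mitochondrial transcripts, with a prior count of 0.5 and with the trends removed. In that order, 1.64%, 1.76%, 1.46% and 1.32% of all genes were higher. At 1.5-fold, 2 genes of the set were lower and 2 higher at this dose. At Reb 5 µM library totals and RPKM each gave 18 lower and 7 higher, with medians of -0.59 and -0.58, and totals without mitochondrial transcripts gave 15 and 8, with a median of -0.44. In that order, 43.4%, 41.5% and 39.5% of all genes were lower and 11.7%, 11.1% and 13.7% higher. Their medians over all genes were -0.75, -0.71 and -0.60. Without a filter the median of the set was -0.10, and with the trends removed 0.61, beside 0 and 0.02 over all genes. The count higher at both doses was 1 with totals without mitochondrial transcripts, with a prior count of 0.5 and with the trends removed. Shares of all genes at 1.5-fold, or in both treated libraries under other settings, were not computed. The dose term called 12 genes where the grouped fit called 0. The cause of these differences was not tested. Without division by length, the leading isoform differed in 1 family at Reb 1 µM and in 3 at Reb 5 µM. With each hairpin it still differed in 1 family, but not in the same family as with division by length.

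DESeq2 size factors and a filter of 5 CPM moved no count by over 1.5 times and no median by 0.1. No replicate could be left out, since each condition had 1 library and leaving out a treated library leaves no residual degrees of freedom. No paired analysis was possible because no group had a second library. Depth limits ACTA2, CNN1 and MEF2C most, whose intervals were the widest of the members called.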
